A study of Mus musculus with 20 samples.

Results

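The cerebellar neurons other than Purkinje cells (PC) and granule cells were followed through 10 marker genes in the cerebella of 20 mice. The genes were Kit, Sorcs3 and Nxph1 for molecular layer interneurons, Slc6a5 and Grm2 for Golgi cells, Eomes and Lmx1a for unipolar brush cells, and Tfap2b, Gad1 and Gad2 for inhibitory neurons. They were taken as a list of symbols, and each of the 10 symbols matched 1 Ensembl gene of the deposited count table, which holds 55401 genes. The mice had the C57BL/6J background. The groups labelled 9w were 3 WT mice treated with AAV-shA4 and 3 untreated WT mice. The groups labelled 25w were 5 SCA7 mice given AAV-shA4, 5 given AAV-shSCR and 4 untreated WT mice. SCA7 mice are a knock-in model of spinocerebellar ataxia type 7, labelled 140Q/5Q for an ataxin-7 with a tract of 140 glutamines beside the mouse allele with 5. shA4 is an shRNA aimed at the expanded repeat, shSCR a scrambled control, and both were carried by the AAV PHP.eB capsid, which was injected into the blood. Saline was given to the untreated mice, as stated in the methods. The comparison of SCA7 mice with WT mice therefore differs in genotype and in the vector at once, and the parts of both cannot be told apart. The day from which weeks count is not in the labels. The paper counts from injection, at 9 weeks for the treated WT mice and at a number other than 25 for the SCA7 mice. Each library came from 1 cerebellum, so the p-values measure the spread between mice.

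Golgi cells sit in the granular layer, where they release GABA and glycine onto granule cells, and molecular layer interneurons (basket and stellate cells) inhibit PCs. Unipolar brush cells are excitatory interneurons of the granular layer, abundant in the vestibular lobules, that receive a single mossy fibre on a brush-shaped dendrite and pass its signal to granule cells. Gad1 and Gad2 encode the enzymes that make GABA and are used by PCs as well as by interneurons, so in whole cerebellum they do not belong to 1 cell type. Gene positions are those of GENCODE M21 on GRCm38. Eomes (ENSMUSG00000032446) spans chr9:118478212-118486132 on the plus strand, Grm2 (ENSMUSG00000023192) chr9:106643095-106656082 on the minus strand and Gad1 (ENSMUSG00000070880) chr2:70553072-70602014 on the plus strand, and the counts sum over the exons of each gene. No annotated transcript of the 10 genes holds more than 2 CAG triplets in a row. In whole tissue, fewer cells of a type and less RNA per cell cannot be told apart.

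Grm2 and Eomes were the members called in both comparisons of SCA7 mice with WT mice, so the 250 bases before the RefSeq start of each are shown (RefSeq, GRCm38.p6, given 5′ to 3′ on the strand of the gene). Capitals mark 3 core promoter motifs searched on both strands, which are TATANAA (the TATA box), CCAAT (the CCAAT box, read as ATTGG on the other strand) and GGGCGG (the GC box). The Eomes window lies at chr9:118477939-118478188 on the plus strand, and the Grm2 window at chr9:106656110-106656359 on the minus strand.
Eomes: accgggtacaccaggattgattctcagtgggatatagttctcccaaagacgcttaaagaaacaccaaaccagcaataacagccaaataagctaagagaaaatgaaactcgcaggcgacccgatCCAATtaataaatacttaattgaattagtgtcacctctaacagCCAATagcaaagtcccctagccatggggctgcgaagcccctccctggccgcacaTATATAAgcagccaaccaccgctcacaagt
Grm2: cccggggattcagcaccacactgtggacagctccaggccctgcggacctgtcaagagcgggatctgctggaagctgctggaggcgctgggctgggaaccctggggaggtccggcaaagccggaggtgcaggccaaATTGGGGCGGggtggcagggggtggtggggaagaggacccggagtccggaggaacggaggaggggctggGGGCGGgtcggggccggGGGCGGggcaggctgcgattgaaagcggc
The Eomes window has a GC content of 46.4%, a TATANAA match at -30 and CCAAT matches at -127 and -84, counted from the start. The Grm2 window has a GC content of 71.2%, GGGCGG matches at -111, -46 and -29, and a CCAAT match at -115 that overlaps the first of them. The median GC content of 32851 mouse promoter windows of the same length was 52.4%. TATANAA is present in 10.4% of these windows, CCAAT in 33.8% and GGGCGG in 32.7%. Among the 10 members, 1 has TATANAA, 5 have CCAAT and 5 have GGGCGG in at least 1 of their windows. These matches are a description of the letters and were not tied to the read counts.

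The depth on genes ranged from about 31465600 to 54570500 reads per library. Within the 9w groups the depth did not overlap, with about 36245800 to 39208300 reads in AAV-shA4-treated and 47455900 to 49212600 reads in untreated WT mice. The targeted gene Atxn7 was measured at 37.6 to 43.1 CPM (normalised read count, scaled to library size by the TMM method of edgeR) at 9w and at 44.4 to 53.4 CPM at 25w. Its log2 fold change was -0.04 between AAV-shA4- and AAV-shSCR-treated SCA7 mice (SE 0.05, adjusted p = 0.842 from edgeR), in counts that add the reads of both alleles. Some libraries stood apart in markers of neighbouring tissue. The summed level of 8 choroid plexus genes ranged from 50.8 to 3898 CPM over the 20 libraries. The sum of 11 brainstem and nuclear genes reached 81.4 CPM in WT 25w replicate 1 and 76.3 CPM in AAV-shA4-treated SCA7 replicate 1, against 15.8 to 38.2 CPM in the other 18. Not all genes of this list took part. Hoxa2, Hoxb2, Hoxb3, Hoxb4 and Hoxb5 reached at most 0.129 CPM in WT mice at 25w and 0.222 CPM in AAV-shA4-treated SCA7 mice. For the members, results that moved without these 2 libraries are given with both values. Values of other genes and of the lists were not taken from fits without them.

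The 10 genes differed widely in level. Per kilobase of exon, the mean level over 20 libraries was 81.2 CPM for Gad1, 30.9 for Kit, 30.3 for Gad2, 10.3 for Tfap2b, 6.51 for Slc6a5, 5.39 for Grm2, 5.15 for Eomes, 4.08 for Nxph1 and 3.92 for Sorcs3. Lmx1a was the lowest at 0.5003 CPM per kilobase, with 27 to 117 reads per library, whereas the other 9 had at least 312 reads in each library. The ranges over libraries overlapped between Kit (28.3 to 33.6 CPM per kilobase) and Gad2 (26.4 to 35.1), between Nxph1 and Sorcs3, and between Slc6a5, Grm2 and Eomes. Grm2 (3.62 to 6.90) also overlapped with Nxph1 (3.41 to 4.95) and Sorcs3 (3.67 to 4.22), and Eomes (2.18 to 12.1) with these and with Tfap2b (9.05 to 11.6). All 10 genes passed the filter on low counts in each of the fits. The plot of levels by group shows the spread between mice. Relative to the mean, it was largest for Eomes and Lmx1a, with a coefficient of variation within groups of 12.4% to 35.3% and 24.7% to 44.5%.

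**Figure D1:**
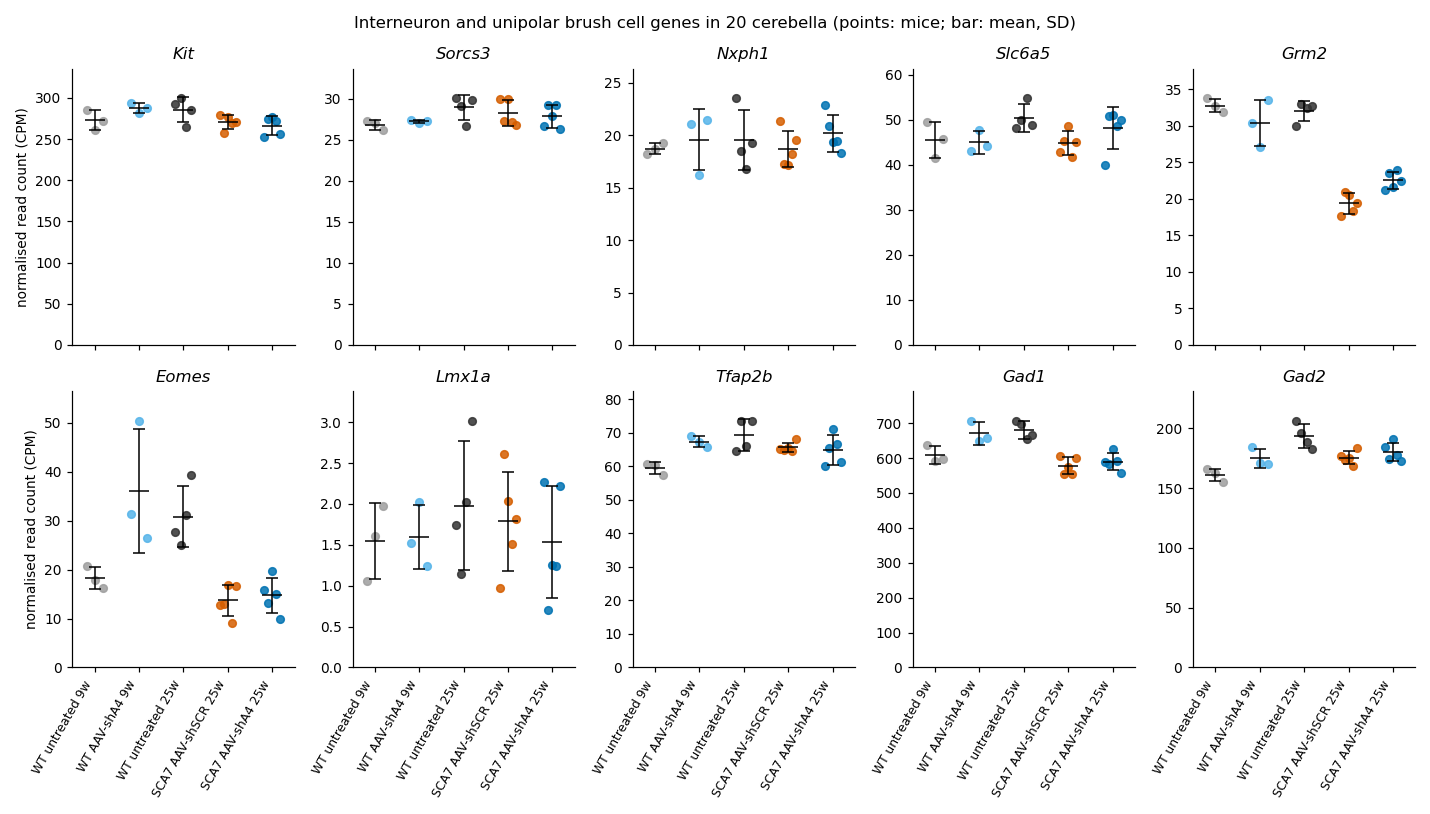
Normalised read count (CPM, linear axis from 0) of each gene in 5 groups, with points for mice and bars for the mean and SD. Grm2 lies at 17.7 to 24.0 CPM in the 10 SCA7 mice and at 27.2 to 33.8 CPM in the 10 WT mice, and Eomes at 9.05 to 19.8 CPM in SCA7 mice.

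To see which of these genes differed in the SCA7 cerebellum, both SCA7 groups were compared with the 4 untreated WT mice at 25w. A call needed an adjusted p below 0.05 together with a fold change of more than 1.3 either way. With AAV-shSCR, all 10 members had a lower fitted level than in WT mice and 2 were called, Grm2 and Eomes, against a background of 4.02% of the 14862 genes tested. Counting the adjusted p alone, 4 members passed (Grm2, Eomes, Gad1 and Gad2), against 15.5% of genes, and the groups did not overlap for 3 (Grm2, Eomes and Gad1), against 16.8%. With AAV-shA4, 9 members were lower and the same 2 were called, against 3.45% of genes. Here 3 members passed the adjusted p (Grm2, Eomes and Gad1), against 13.6%, and the same 3 did not overlap with WT mice, against 13.4%. The median log2 fold change of the members was -0.14 under AAV-shSCR and -0.10 under AAV-shA4, beside 0.00165 and 0.00614 over all genes. Both comparisons share the same 4 WT mice.

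Eomes encodes the T-box factor (also called Tbr2) that marks unipolar brush cells. Its level was 27.6, 25.004, 31.2 and 39.4 CPM in the untreated WT mice at 25w. It was 12.8, 13.002, 16.9, 9.05 and 16.6 CPM in AAV-shSCR-treated SCA7 mice and 15.8, 13.1, 19.8, 15.1 and 9.98 CPM in AAV-shA4-treated SCA7 mice. Each SCA7 mouse lay below each WT mouse, and the SCA7 groups overlapped each other. The means were 30.8 ± 6.27 CPM (SD, n = 4), 13.7 ± 3.24 CPM (SD, n = 5) and 14.7 ± 3.60 CPM (SD, n = 5). Eomes was 2.24-fold lower with AAV-shSCR, a log2 fold change of -1.17 (SE 0.19, Benjamini-Hochberg adjusted p = 0.000362 by the quasi-likelihood test of edgeR). With AAV-shA4 it was 2.09-fold lower, a log2 fold change of -1.06 (SE 0.18, adjusted p = 0.000832 from the same test). An exact two-sided permutation test gave p = 0.00794 for each, the smallest it can give with 5 against 4 mice. Both calls held in each of 14 fits with 1 library left out. An antisense gene, Gm33460, overlaps an exon of Eomes by 118 bases and had 3 to 25 reads per library, against at least 312 on Eomes.

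Eomes also differed among WT mice. In untreated WT mice at 9w it was at 20.8, 17.8 and 16.3 CPM, so that the 9w mice lay below the 25w mice without overlap, and the SCA7 mice at 25w overlapped with the 9w mice. The difference between untreated WT mice at 25w and 9w was 0.75 on the log2 scale (SE 0.23, adjusted p = 0.0197 from edgeR), which made Eomes the 1 member called in this comparison, against 5.27% of the 15095 genes tested. The call was lost without WT 25w replicate 4 (0.61, adjusted p = 0.0661), without WT 9w replicate 2 (0.73, adjusted p = 0.0589) and without WT 9w replicate 3 (0.67, adjusted p = 0.0880). The labels give no batch, and whether the 9w and 25w libraries were prepared together is not given in the sources used here, so time and preparation cannot be told apart.

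AAV-shA4-treated WT mice at 9w had 31.3, 50.4 and 26.4 CPM of Eomes, each above the untreated mice of that time, with means of 36.0 ± 12.7 and 18.3 ± 2.26 CPM (SD, n = 3 each). The log2 fold change was 0.98 (SE 0.19, unadjusted p = 0.000324, adjusted p = 0.105 from edgeR), so Eomes was not called. It ranked 45 among 14733 genes by p. Leaving out 1 library, the log2 fold change ranged from 0.66 to 1.16, and Eomes was called without AAV-shA4 replicate 3 (1.16, adjusted p = 0.0293). It was called too without the filter on low counts (0.98, adjusted p = 0.0365) and with replicate number as a block (0.93, adjusted p = 0.0303). It was not called with robust fitting (adjusted p = 0.352), with all gene types (0.0898), with DESeq2 size factors in edgeR (0.109) or by DESeq2 itself (0.106). With 3 against 3 mice an exact permutation test cannot give a p below 0.1, which it gave here. T and NK cells can also express Eomes. The summed level of 10 T and NK cell genes was 0.6248, 0.737 and 6.72 CPM in the 3 treated mice, against 0.624 to 0.645 CPM in the untreated ones. The highest of these values was in replicate 3, which had 26.4 CPM of Eomes. At 25w the sum was 0.487 to 1.11 CPM in WT and 0.623 to 2.86 CPM in SCA7 mice, and 2 of the 10 genes passed the filter there. The part of T and NK cells in the level of Eomes was not tested. The depth of the 9w groups did not overlap either, and its part in the result was not tested.

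Lmx1a encodes a LIM-homeodomain factor of unipolar brush cells that is also active in the roof plate and choroid plexus lineage. It ranged from 1.14 to 3.02 CPM in WT mice at 25w, from 0.973 to 2.61 CPM with AAV-shSCR and from 0.700 to 2.26 CPM with AAV-shA4, with overlap between all groups. Its log2 fold change against WT mice was -0.14 (95% interval -0.84 to 0.56) with AAV-shSCR and -0.35 (-1.06 to 0.35) with AAV-shA4, and both intervals include 0. Lmx1a did not follow Eomes from mouse to mouse. After subtracting group means, the correlation over the 20 libraries was 0.23 between Lmx1a and Eomes on the log2 scale, and 0.89 between Lmx1a and the summed level of the choroid plexus list. The 3 genes closest to Lmx1a by this measure among 13354 were Gmnc (0.95), which acts in the formation of multiciliated cells, Calml4 (0.93) and Ace (0.93). Each point is 1 library, so all genes of a point share its depth and its dissection, and the correlations are descriptions. In the library with the lowest choroid plexus sum, AAV-shA4-treated SCA7 replicate 2 at 50.8 CPM, Lmx1a was at 0.700 CPM. In the library with the highest, WT 25w replicate 4 at 3898 CPM, it was at 3.02 CPM. Ttr made up most of the choroid plexus sum, with a mean of 1814 CPM in WT mice at 25w against 58.8 CPM for Kl, the next highest.

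**Figure D2:**
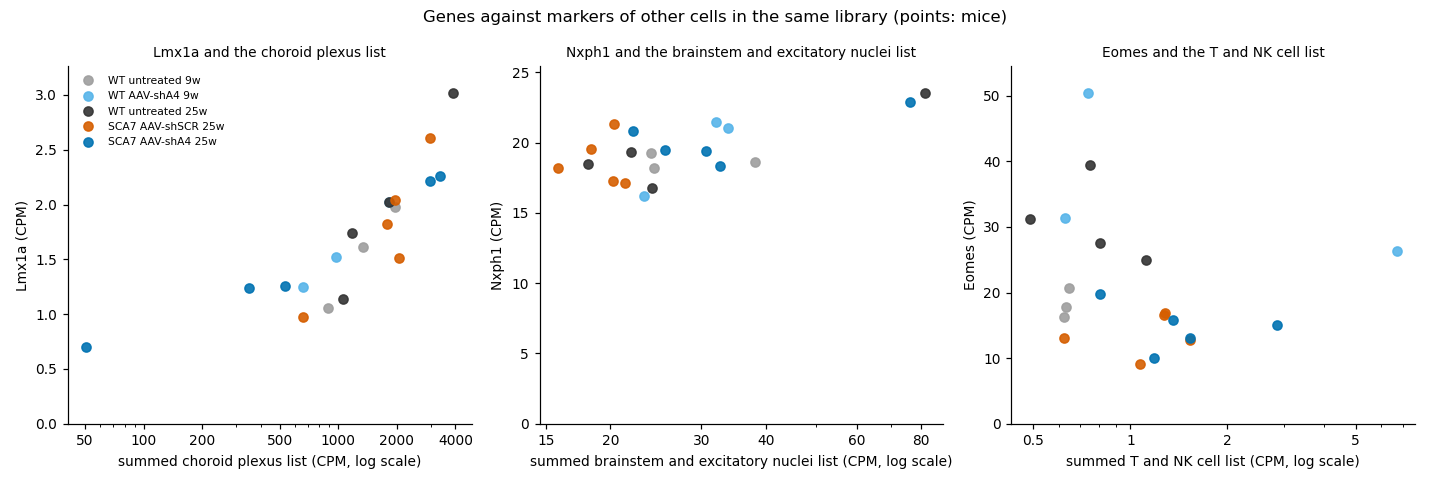
Level of 3 genes (CPM, linear axis) against the summed level of markers of other cells in the same library (CPM, log axis), 1 point per mouse. Lmx1a rises with the choroid plexus sum from 0.700 to 3.02 CPM, Nxph1 is at 23.5 and 22.9 CPM in the 2 libraries with the highest brainstem sums, and the library with 6.72 CPM of T and NK cell genes has 26.4 CPM of Eomes.

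Grm2 encodes a metabotropic glutamate receptor found on Golgi cells and on part of the unipolar brush cells. Its level was 30.002, 33.0, 32.5 and 32.7 CPM in untreated WT mice at 25w. In AAV-shSCR-treated SCA7 mice it was 17.7, 20.99, 20.6, 18.3 and 19.4 CPM, and in AAV-shA4-treated SCA7 mice 21.3, 23.5, 21.6, 24.0 and 22.4 CPM. The 3 groups did not overlap, with AAV-shSCR lowest, AAV-shA4 between and WT highest. Grm2 was 1.65-fold lower with AAV-shSCR than in WT mice (log2 fold change -0.72, SE 0.06, adjusted p = 1.54e-07 from edgeR) and 1.42-fold lower with AAV-shA4 (log2 fold change -0.51, SE 0.06, adjusted p = 7.33e-06). It kept both calls in each of 14 fits with 1 library left out. Grm2 showed no call between untreated WT mice of 25w and 9w (32.1 ± 1.38 against 32.8 ± 0.947 CPM, log2 fold change -0.03, 95% interval -0.17 to 0.10) nor with AAV-shA4 at 9w (30.4 ± 3.17 CPM, log2 fold change -0.11, 95% interval -0.29 to 0.06). At 9w it was at 30.5, 27.2 and 33.5 CPM in treated and 33.8, 32.7 and 31.9 CPM in untreated WT mice, which overlapped. Gm28111, an antisense gene that overlaps 470 exon bases of Grm2, had 0 or 1 read per library.

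The direct comparison of the SCA7 groups asks what shA4 changed in diseased mice. For Grm2 the log2 difference was 0.21 with a 95% interval of 0.10 to 0.33, and each AAV-shA4-treated mouse was above each AAV-shSCR-treated mouse. The unadjusted p was 0.000986 and the adjusted p 0.376 from edgeR, so Grm2 was not called. Adjusted p was between 0.227 and 0.927 with 1 library left out and 0.0889 with DESeq2. No member was called and 0% of the 14862 genes were called by edgeR, while DESeq2 called 0 members and 4 genes. Grm2 was the 1 member with an unadjusted p under 0.05, against 8.22% of genes, and the 1 member whose groups did not overlap, against 1.49%. For Eomes the log2 difference was 0.10 (95% interval -0.28 to 0.48), and the upper end of this interval is below the size of the AAV-shSCR difference from WT mice. The other 8 members differed by -0.21 (Lmx1a) to 0.11 (Nxph1).

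**Figure D3:**
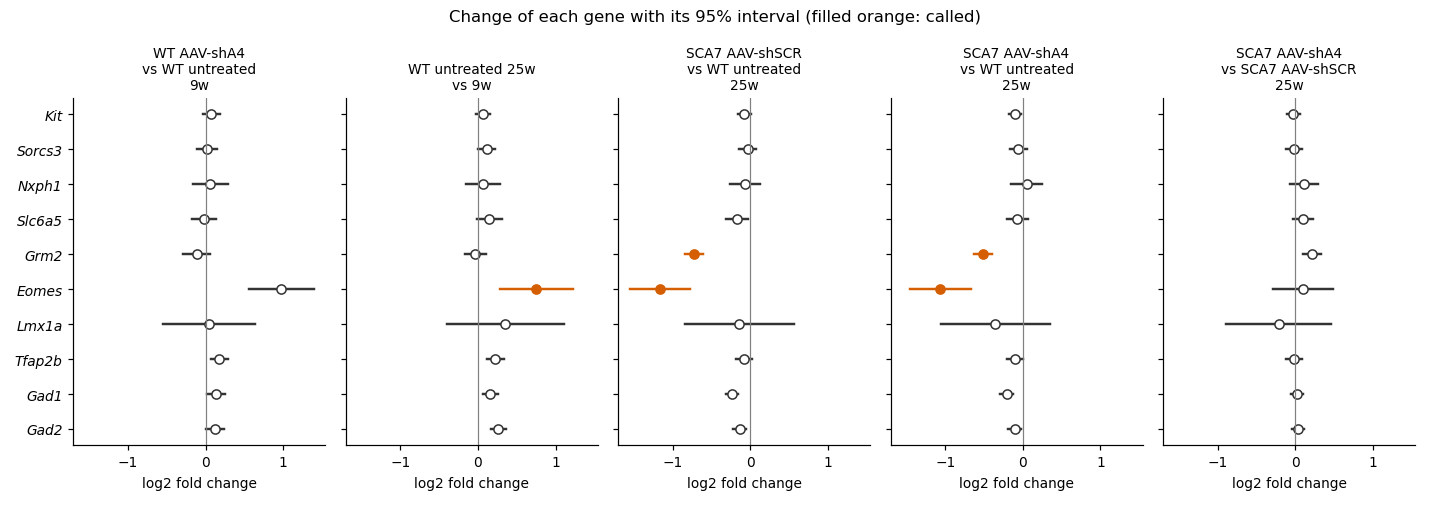
Log2 fold change of each gene with its 95% interval in 5 comparisons, with called genes filled in orange. Grm2 and Eomes are called in both comparisons of SCA7 with WT mice, Eomes in untreated WT mice of 25w against 9w, and no gene is called in the first or the last panel.

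Slc6a5 encodes GlyT2, the glycine transporter of glycinergic neurons, and is the second Golgi cell gene listed. It was at 48.1, 50.03, 54.8 and 48.8 CPM in WT mice at 25w, at 42.9, 45.4, 48.7, 41.8 and 45.2 CPM with AAV-shSCR and at 39.9, 50.9, 51.1, 48.6 and 49.98 CPM with AAV-shA4. The groups overlapped in each of these comparisons. Its log2 fold change with AAV-shSCR was -0.17 (SE 0.07, adjusted p = 0.0992 from edgeR), and without the 2 libraries with high brainstem sums it was -0.19 (adjusted p = 0.0174), under the fold limit. With AAV-shA4 it was -0.07 (95% interval -0.21 to 0.07). Within a library, Grm2 reads amounted to 0.637 ± 0.0353 of Slc6a5 reads in WT mice at 25w (SD, n = 4), 0.433 ± 0.0188 with AAV-shSCR and 0.472 ± 0.0426 with AAV-shA4 (SD, n = 5 each). These ratios do not depend on the scaling between libraries. They were chosen after the values were seen and carry no test. The lowest WT ratio at 25w was 0.593 and the highest SCA7 ratio 0.533.

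**Figure D4:**
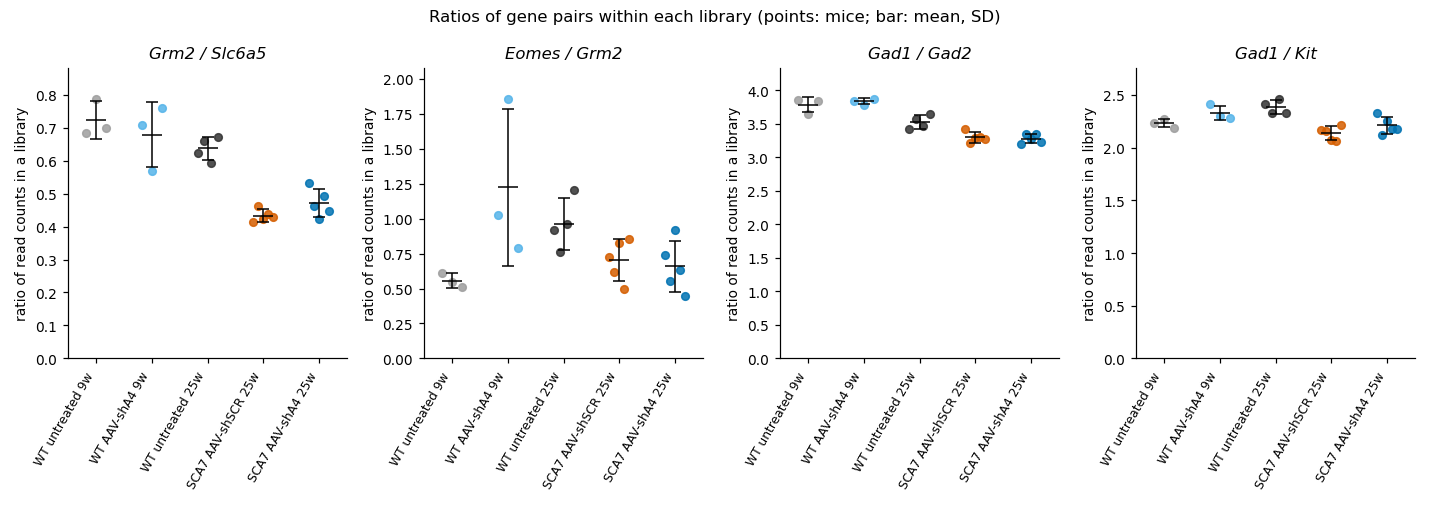
Ratio of the read counts of 2 genes within each library (linear axis from 0), with points for mice and bars for the mean and SD. Grm2 over Slc6a5 lies at 0.413 to 0.533 in SCA7 mice and at 0.569 to 0.788 in WT mice, and Gad1 over Gad2 is lower at 25w than at 9w.

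The molecular layer interneuron genes showed no called difference in any comparison. Kit, a receptor tyrosine kinase whose ligand Kitl is made by PCs, was at 292.7, 299.7, 265.1 and 285.5 CPM in WT mice at 25w. It was at 256.9 to 279.1 CPM with AAV-shSCR and 252.6 to 277.0 CPM with AAV-shA4, both overlapping with WT mice. The log2 fold changes were -0.08 (95% interval -0.16 to 0.00482) and -0.10 (-0.18 to -0.02), with adjusted p of 0.201 and 0.104 from edgeR. Mast cells also carry Kit, and the summed level of 7 mast cell genes was 5.21 to 9.23 CPM over the 20 libraries. Most of this sum was Hdc, with group means of 5.43 to 8.54 CPM. The highest group mean of the other mast cell genes was 0.283 CPM (Tpsb2 in untreated WT mice at 9w). The part of mast cells in the level of Kit was not tested. Kitl was lower in both SCA7 groups without overlap, at 156 ± 10.1 CPM with AAV-shSCR and 166.5 ± 10.6 CPM with AAV-shA4 (SD, n = 5 each) against 205 ± 8.17 CPM in WT mice (SD, n = 4). It was called with AAV-shSCR (log2 fold change -0.39, adjusted p = 3.74e-05 from edgeR) and stayed under the fold limit with AAV-shA4 (-0.30, adjusted p = 0.000626).

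Sorcs3, a sorting receptor of the Vps10 family, had the narrowest range for its level, with 26.2 to 30.1 CPM over the 20 libraries. Its log2 fold change against WT mice at 25w was -0.03 under AAV-shSCR and -0.06 under AAV-shA4, with 95% intervals of -0.14 to 0.07 and -0.16 to 0.05. Nxph1 encodes neurexophilin 1, a secreted ligand of alpha-neurexins. It ranged from 16.2 to 23.5 CPM, and the groups overlapped in all comparisons. The log2 fold change of Nxph1 against WT mice was -0.06 under AAV-shSCR and 0.05 under AAV-shA4. The first of these turned to 0.040 without the 2 libraries with high brainstem sums, which held 23.5 and 22.9 CPM of Nxph1, the highest levels of all 20.

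Of the inhibitory neuron genes, Gad1 had the largest fitted difference between SCA7 and WT mice. It encodes GAD67, the enzyme behind most GABA synthesis. It was at 706, 698, 653 and 666 CPM in WT mice at 25w, at 604.6, 555, 574.6, 555.6 and 600.4 CPM with AAV-shSCR and at 589, 583, 625, 592 and 557 CPM with AAV-shA4. No SCA7 mouse reached the WT range. Gad1 was 1.18-fold lower with AAV-shSCR (log2 fold change -0.24, SE 0.04, adjusted p = 0.000476 from edgeR) and 1.16-fold lower with AAV-shA4 (-0.21, SE 0.04, adjusted p = 0.00146). Both are under the fold limit, and both adjusted p stayed under 0.05 in each of 14 fits with 1 library left out. The 8 PC genes of a marker list, such as Pcp2, Car8, Calb1 and Itpr1, were lower in the same mice, 8 of 8 in both comparisons, with medians of -0.41 and -0.36. The summed level of this list was 8713 to 9776 CPM in WT mice at 25w, 6351 to 7119 CPM with AAV-shSCR and 6422 to 7539 CPM with AAV-shA4. The part of PCs in the Gad1 result was not tested.

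Gad2 encodes GAD65, the form of the enzyme found at nerve terminals. It was at 206.4, 195.8, 188.4 and 182.9 CPM in WT mice at 25w, at 168.4 to 183.8 CPM with AAV-shSCR and at 172.7 to 191.3 CPM with AAV-shA4, with overlap in both cases. With AAV-shSCR its log2 fold change was -0.14 (SE 0.04, adjusted p = 0.0210 from edgeR) and with AAV-shA4 it was -0.10 (SE 0.04, adjusted p = 0.0915). The first adjusted p rose above 0.05 in 3 of 14 fits with 1 library left out and was 0.0782 without the 2 libraries with high brainstem sums. Tfap2b encodes an AP-2 factor of the inhibitory lineage. It was at 64.5 to 73.6 CPM in WT mice, 64.6 to 68.2 CPM with AAV-shSCR and 60.2 to 71.1 CPM with AAV-shA4. Its log2 fold changes of -0.08 and -0.10 had adjusted p of 0.315 and 0.229.

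Between untreated WT mice of 25w and 9w, 4 members passed the adjusted p (Eomes, Gad1, Gad2 and Tfap2b), against 24.2% of the 15095 genes tested. The same 4 did not overlap between the times, against 33.4%, and all 4 were higher at 25w. The log2 difference was 0.26 for Gad2 (SE 0.04, adjusted p = 0.000262 from edgeR), 0.22 for Tfap2b (adjusted p = 0.00441) and 0.16 for Gad1 (adjusted p = 0.0140), all under the fold limit. The ratio of Gad1 to Gad2 reads was 3.78 ± 0.116 in untreated WT mice at 9w (SD, n = 3) and 3.52 ± 0.0990 at 25w (SD, n = 4). It was 3.29 ± 0.0789 under AAV-shSCR and 3.27 ± 0.0654 under AAV-shA4 (SD, n = 5 each), again without a test.

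With AAV-shA4 in WT mice at 9w, no member was called by edgeR, against 0.0543% of genes, and none by DESeq2. Unadjusted p was under 0.05 for 4 members (Eomes, Tfap2b, Gad1 and Gad2), against 11.1% of genes, and the same 4 did not overlap with untreated mice, against 16.0%. All 4 were higher in treated mice. Tfap2b was at 68.9, 67.2 and 65.8 CPM against 60.6, 60.4 and 57.4 CPM, a log2 fold change of 0.18 (SE 0.05, adjusted p = 0.257 from edgeR). Those of Gad1 and Gad2 were 0.14 and 0.12, with adjusted p of 0.383 and 0.424. The difference between the AAV-shA4 effect in SCA7 mice at 25w and that in WT mice at 9w was called by edgeR for 0% of the 15095 genes and 0 members, and by DESeq2 for 4 genes and 0 members. Its unadjusted p was under 0.05 for 3 members, against 7.53% of genes, with log2 differences of 0.33 for Grm2, -0.88 for Eomes and -0.20 for Tfap2b, and adjusted p of 0.495, 0.584 and 0.606.

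Other genes of the same cells were read from lists of markers and partners. Of 6 further molecular layer interneuron genes, 5 were lower under AAV-shSCR than in WT mice, at a median of -0.06. Under AAV-shA4 the list was evenly split, 3 lower and 3 higher, at a median of 0.0017. None was called in either group. In each group 1 gene passed the adjusted p, which under AAV-shSCR was Pvalb (-0.32, also expressed by PCs). Of 7 further genes of Golgi cells and Purkinje layer interneurons, 7 were lower with AAV-shSCR and 6 with AAV-shA4, with medians of -0.34 and -0.10 and 0 called. Their summed level was highest, within each group, in the 2 libraries with high brainstem sums. It was 250.2 CPM in WT 25w replicate 1, against 190.1 to 196.8 CPM in the rest of that group. In AAV-shA4-treated SCA7 replicate 1 it was 208.4 CPM, against 175.7 to 183.7 CPM in the rest. With AAV-shSCR it was 144.8 to 168.7 CPM. The part of these 2 libraries in the medians was not tested. Lgi2 (-0.37) and Pax2 (-0.32) passed the adjusted p with AAV-shSCR, and Lgi2 (-0.16) with AAV-shA4. Between the SCA7 groups, Lgi2 was higher with AAV-shA4 without overlap, at 139 ± 4.82 against 120 ± 8.18 CPM (SD, n = 5 each). The log2 difference was 0.21 (SE 0.05, adjusted p = 0.325 from edgeR), the same size as that of Grm2. Pvalb, Lgi2 and Pax2 were singled out after their values were seen.

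Of 8 further unipolar brush cell genes, 6 were tested at 25w. Calb2, the calcium-binding calretinin, which granule cells also express, was higher with AAV-shSCR (0.26, adjusted p = 0.0144 from edgeR), opposite in sign to Eomes. The median over the list was -0.13 under AAV-shSCR and -0.07 under AAV-shA4. In both groups 2 of the tested genes were higher and 4 lower. Calb2 was named after its values were seen.

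Among 21 genes of GABA and glycine synapses, 18 were lower with AAV-shSCR and 15 with AAV-shA4. Gabbr2, a subunit of the GABA-B receptor, was called in both groups (-0.47 and -0.50), at 294 ± 10.3 and 288 ± 3.84 CPM (SD, n = 5 each) against 407 ± 13.2 CPM in WT mice (SD, n = 4). Glra1, a glycine receptor subunit, was called with AAV-shSCR (-1.24, adjusted p = 0.0396 from edgeR) with overlapping groups. Its highest level in any group was 3.98 CPM, in WT mice at 25w, where the median was 1.68 CPM. Among 19 partners and relatives of the members, 15 were tested, and Nxph3, a relative of Nxph1, was called in both groups (-0.58 and -0.65). No gene of these lists was called between the SCA7 groups or in WT mice at 9w.

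The genes of 1 cell class did not vary together in all cases. After subtracting group means, the correlation of log2 levels over 20 libraries was 0.84 between Gad1 and Gad2, 0.72 between Gad1 and Kit and 0.71 between Kit and Sorcs3. It was 0.29 between Kit and Nxph1, 0.30 between Slc6a5 and Grm2 and -0.15 between Grm2 and Eomes. Slc6a5 and Nxph1 went in opposite directions (-0.63). These values too are descriptions. Among 13354 genes, those close to Kit included Gria1 (0.84), an AMPA receptor subunit, and Lrp11 (0.84). Sorcs3 was nearest to Plpp3 (0.85) and Wipi2 (0.85). Nxph1 was nearest to Cdk5r1 (0.89), Myl6b (0.88) and Rhpn1 (0.87). Gad1 was nearest to Hdgfl3 (0.90) and Ywhab (0.88). Gad2 was nearest to Trim37 (0.90), Uhmk1 (0.89) and Stau2 (0.88), and Tfap2b to Trim67 (0.86), Mprip (0.81) and Gria4 (0.80). For Eomes the order was Alg11 (0.84), Utp4 (0.84) and Trib1 (0.83), for Grm2 Rab4b (0.79), Sphk1 (0.79) and Akip1 (0.77), and for Slc6a5 Stard4 (0.82), Prorsd1 (0.77) and Zdhhc9 (0.77).

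**Figure D5:**
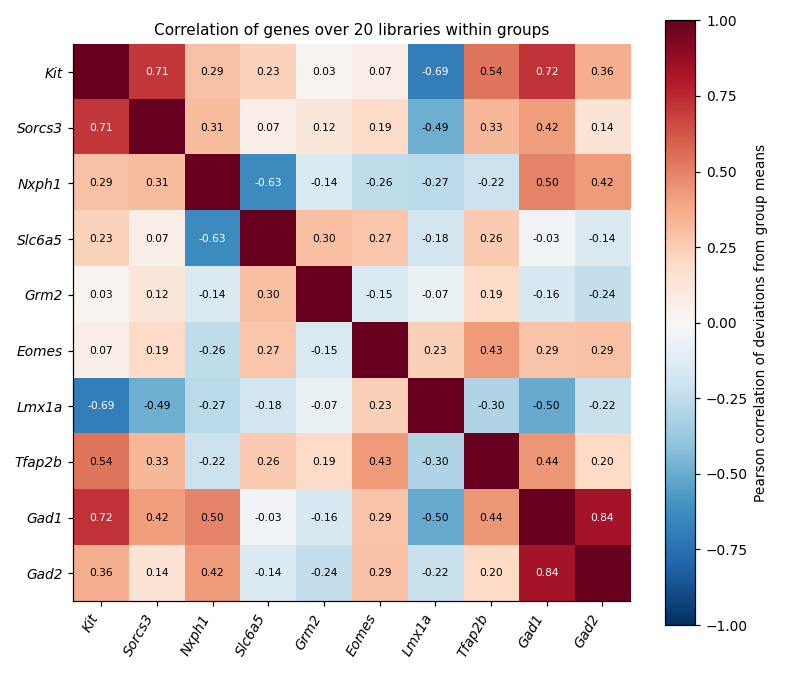
Pearson correlation between genes of their deviations from the group means of log2 CPM over 20 libraries, on a colour scale from -1 to 1. Gad1 and Gad2 reach 0.84, Kit and Sorcs3 0.71, and Lmx1a is negative with Kit at -0.69.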

How the data were processed

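Cerebellar RNA of 20 mice was sequenced from stranded polyA libraries as single 50-base reads. The authors deposited raw read counts per Ensembl gene, not normalized. According to the submitters' processing notes they used bcl2fastq 2.20.0.422, cutadapt 1.10, Bowtie2 2.2.8 (which removed rRNA reads), STAR 2.5.3a on mm10 and HTSeq 0.6.1p1. Whether the counting used strand is not given in the sources used here, so reads of antisense partners may be included.

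From these counts, protein-coding genes of GENCODE M21 (21897 genes, while 260 of the 55401 genes had no entry there) were tested with edgeR 4.0.16 in R 4.3.3, with TMM scaling, filterByExpr (minimum count 10, minimum total 15), the quasi-likelihood test and Benjamini-Hochberg adjustment over all tested genes. The 9w comparison used 6 libraries, the 25w comparisons 14, and comparisons across times all 20. Calls required an adjusted p below 0.05 with a fold change of more than 1.3. CPM of single libraries came from 1 TMM scaling over all 20, and correlations and permutation tests used log2(CPM + 0.1). Groups came from the labels. No pair of libraries in a group agreed within counting noise (chi-square per degree of freedom 4.73 to 25.1). The procedure was tested on simulated data. DESeq2 1.42.0, other filters, scalings and gene sets, a replicate block and leaving out libraries were alternatives.

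The 10 members and the 14 other lists (122 genes) were chosen with earlier results of these data known. Besides the members, at most 4 called genes per list and comparison are named, those with the highest fold change, and for each member the 3 genes of highest correlation among genes of at least 1 CPM. Some genes that these rules select are not reported here. Other named genes were singled out after their values were seen.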

Additional observations from a re-analysis of the deposited data

Results flagged for a closer look

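Of 30 sets of 4 or 5 mice examined (10 genes in 3 groups at 25w), 3 held a mouse whose gap to its nearest neighbour passed the 95% limit of Dixon's test, which chance alone passes in about 1 of 20 groups. Slc6a5 was at 39.9 CPM in AAV-shA4-treated SCA7 replicate 1, against 48.6 to 51.1 CPM in the other mice of the group. Grm2 was at 30.002 CPM in untreated WT 25w replicate 1, against 32.5 to 33.0 CPM in the others. These are the 2 libraries with the high sums of brainstem genes, and the part of neighbouring tissue in both values was not tested. Tfap2b was at 68.2 CPM in AAV-shSCR-treated SCA7 replicate 5, against 64.6 to 65.3 CPM in the others.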

How the results depend on the processing

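The calls of Grm2 and Eomes in both comparisons of SCA7 with WT mice remained under every alternative run, with 2 members called in each leave-one-out fit. With the adjusted p alone and no fold limit, 4 members passed with AAV-shSCR and 4 between WT mice of 25w and 9w. Leaving out single libraries gave 0 to 1 called members in the latter and 0 to 1 in the 9w comparison. In the 9w comparison 1 member, Eomes, was called without the filter on low counts, and 1, again Eomes, with the replicate block (log2 fold change 0.93, adjusted p = 0.0303 from edgeR). Of 16 same-numbered pairs of libraries, 3 correlated above 0.1 (r from -0.22 to 0.54). The highest value was between the 2 libraries with high brainstem sums. Differently numbered pairs were not computed as a reference, so whether replicate numbers pair the mice cannot be told from this. The block changed no other member's call. The 9w count of 8 genes over the whole table was the least stable, with 16 for all gene types, 26 without the filter, 53 by DESeq2, 19 with robust fitting, 37 with the block and 1 to 43 without single libraries. Without a fold limit the numbers of genes rose from 597 to 2309 (AAV-shSCR), from 513 to 2018 (AAV-shA4) and from 796 to 3651 (WT mice of 25w against 9w). DESeq2 called 4 genes between the SCA7 groups and 4 for the difference of the AAV-shA4 effects, where edgeR called 0. Scaling by DESeq2 size factors moved each of 50 group means by less than its SD.

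No direction turned with DESeq2, the other scaling, filters or gene sets, robust fitting or the block, but signs near 0 turned when 1 library was left out. The ranges were -0.025 to 0.22 for Eomes between the SCA7 groups, -0.32 to 0.13 for Lmx1a with AAV-shSCR and -0.17 to 0.26 at 9w. For Nxph1 they were -0.071 to 0.12 for the difference of the AAV-shA4 effects, -0.019 to 0.15 with AAV-shA4, -0.13 to 0.041 with AAV-shSCR, -0.0097 to 0.19 at 9w and -0.042 to 0.13 between WT mice of 25w and 9w. They were -0.082 to 0.041 for Slc6a5 at 9w, and between the SCA7 groups -0.040 to 0.00192 for Sorcs3 and -0.052 to 0.0096 for Tfap2b. The cause was not tested. Without both libraries with high brainstem sums, a choice made after seeing the data, no member's call changed, and 4 signs turned: Nxph1 was at -0.00186 for the difference of the AAV-shA4 effects, 0.040 with AAV-shSCR and -0.042 between WT mice of 25w and 9w, and Tfap2b at 0.0096 between the SCA7 groups. Lmx1a had the fewest reads of the members, with 27 to 117 per library, and the part of depth in its spread was not tested. Vector and genotype differ together between SCA7 and WT mice, and no SCA7 mouse was measured at 9w.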

Other observations

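Glial and granule cell genes were counted in the same comparisons. Of 4 oligodendrocyte genes, 4 were lower with AAV-shSCR than in WT mice at 25w and 3 with AAV-shA4. In each of these comparisons 1 was called lower and 2 passed the adjusted p. Between untreated WT mice of 25w and 9w, 3 were called lower at 25w, among them Mog (-0.63) and Mag (-0.40), both proteins of the myelin sheath. Of 4 genes of astrocytes and Bergmann glia, 4 were lower in each SCA7 comparison with WT mice, and 0 were called. Of 4 microglial genes 0 were called in any comparison. Granule cell genes were called in neither SCA7 comparison (4 of 8 lower with AAV-shSCR and 5 of 8 with AAV-shA4). Cbln1, a synaptic organizer of parallel fibres, was called lower in WT mice at 25w than at 9w (-0.50).

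Of 8 choroid plexus genes, 7 were lower with AAV-shSCR and 8 with AAV-shA4 than in WT mice at 25w (medians -0.19 and -0.57), and 0 were called. Of the 11 brainstem genes 3 passed the filter, with 0 called. Of the T and NK cell genes 2 passed it at 25w, with 0 called. Of the 7 mast cell genes 1 was tested at 25w, Hdc, the histidine decarboxylase that makes histamine, which was called lower with AAV-shA4 (-0.41). At 25w against 9w in WT mice, 2 synapse genes were called higher, Glra1 (1.66) and Gabrb2 (0.45), the latter a GABA-A receptor subunit. No gene of these lists was called with AAV-shA4 in WT mice at 9w, between the SCA7 groups or for the difference of the AAV-shA4 effects.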
